A study of Mus musculus with 16 samples.

Results

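The genes described here are 9 enzymes that use glutathione or oxidize aldehydes, out of 17721 genes counted in single cells of the pubertal mouse mammary gland. They are the glutathione peroxidases *Gpx1*, *Gpx2* and *Gpx3*, the glutathione transferases *Mgst1*, *Mgst3*, *Gstm1* and *Gsto1*, and the aldehyde dehydrogenases *Aldh1a3* and *Aldh3a1*. They were chosen by name with the measured levels of these cells in view, since several had stood out between cell classes or between locations. Their own differences are therefore given as a description with no test, and the p-values given belong to other genes of the same pathways. The lists of those genes were also chosen with earlier results of these data known.

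The single-cell experiment asked how mammary cells differ between nipple, duct and terminal end bud (TEB), the growing tip of the ductal tree. The labels give the strain as C57BL/6, and the methods give gland fragments of mice 5 weeks old that carried K14-Cre, driven by the *Krt14* promoter of basal cells, and the R26-mTmG reporter, alleles that all 3 groups share. There were 4 nipple fragments (numbers 21 to 24), 6 duct fragments (31, 32, 51, 52, 61 and 62) and 6 TEB fragments (31 to 34, 42 and 43), each dissected and sorted singly, and the labels do not say which fragments came from the same mouse. The adjusted p-values given here therefore measure only the spread between these fragments.

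Of 1419 deposited cells, 1318 passed the study's limits, with a median of 29384 unique molecular identifiers (UMIs) per deposited cell and 1856141 to 5233122 UMIs per fragment. Each UMI stands for 1 captured 3' end of a transcript. Clusters were named from fixed markers, which gave 294 basal-like, 426 estrogen receptor positive (ER+) luminal-like, 178 ER- luminal-like and 252 fibroblast-like cells, besides 78 myeloid-like, 19 pericyte-like and 71 unnamed cells. Basal-like cells fell into 1 cluster with 96 nipple, 115 duct and 1 TEB cell and another with 1 nipple and 81 TEB cells. The summed level of the 10 basal markers was 4165 to 8239 CPM (UMIs of a gene scaled to a common library total within each class) in TEB basal-like cells, below the 19280 to 31420 CPM of nipple and duct, with no marker at 0. All 95 well names were used in 2 or more fragments.

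Glutathione peroxidases reduce hydrogen peroxide and lipid hydroperoxides with glutathione as the electron donor, and glutathione transferases join glutathione to reactive electrophiles. Aldehyde dehydrogenases oxidize aldehydes to acids, either to clear the products of lipid peroxidation or, for the retinal dehydrogenases, to make retinoic acid. In the mammary epithelium, aldehyde dehydrogenase activity is widely used to mark luminal progenitors, and several genes of both groups are targets of the transcription factor NRF2.

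The 3 peroxidases are selenoproteins, in which a TGA codon is read as selenocysteine, the residue of the active site. The coding sequence around this codon is shown because the peroxidases are close relatives whose counts depend on unique alignment. It was read from GENCODE M21 transcripts (GRCm38), 27 bases each, 5' to 3', with the selenocysteine codon in capitals.
Gpx1: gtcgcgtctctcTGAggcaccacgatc
Gpx2: gtggcgtcactcTGAggaacaactacc
Gpx3: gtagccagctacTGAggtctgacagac
The codon is number 47 of *Gpx1* (chr9:108339451-108339453, plus strand), number 40 of *Gpx2* (chr12:76795256-76795258, minus strand) and number 73 of *Gpx3* (chr11:54907256-54907258, plus strand), all in coding exons. *Gpx1* and *Gpx2* shared 21 of the 27 bases, and either shared 13 with *Gpx3*. Aligned reads came from the 3' ends, which these windows do not cover.

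The genes of the members lie on 8 chromosomes (GRCm38). *Gpx1* lies at chr9:108338903-108340343, *Gpx2* at chr12:76792333-76795554 and *Gpx3* at chr11:54902453-54910377. *Mgst1* lies at chr6:138140316-138156755, *Mgst3* at chr1:167371966-167393841, *Gstm1* at chr3:108012255-108017973 and *Gsto1* at chr19:47854970-47864790. *Aldh1a3* lies at chr7:66390890-66427517 and *Aldh3a1* at chr11:61207537-61218421. *Gstm1* has near-identical neighbours in the mu class, and *Gpx1* and *Gpx2* have related pseudogene copies, so reads of these genes may be lost or misplaced under unique alignment.

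The first view is by cell class, in CPM of the UMIs of all cells of a class in a fragment that held 5 or more of them. These levels are a description, since the classes were clustered from the same cells. When the 9 members and the genes of 8 pathway lists were left out of the clustering, 294 of 294 basal-like, 425 of 426 ER+, 178 of 178 ER- and 252 of 252 fibroblast-like cells kept their class. *Gpx2* and *Aldh1a3* were among the 10 leading genes of the TEB basal-like and the ER- luminal-like cluster.

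**Figure D1:**
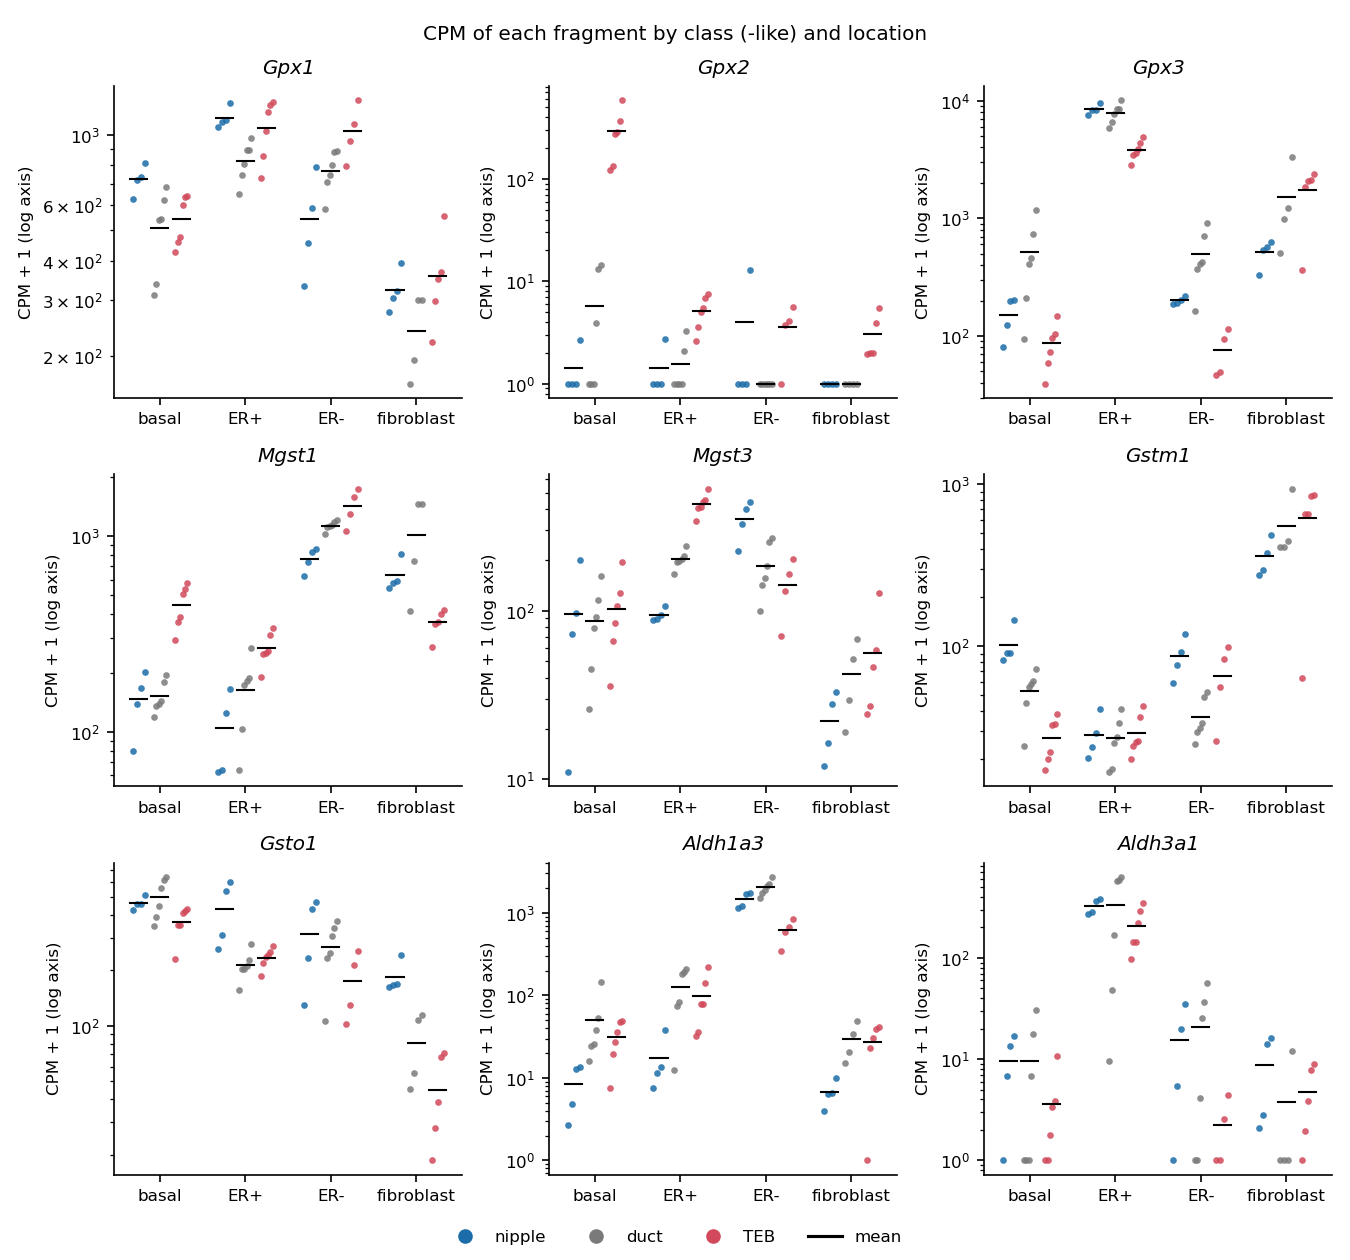
CPM plus 1 (log axis) of the 9 genes in each fragment with at least 5 cells, by class (x axis) and location (colour), with points sorted by value and black lines at the group means. *Gpx3* and *Aldh3a1* were highest in ER+ luminal-like, *Aldh1a3* and *Mgst1* in ER- luminal-like and *Gstm1* in fibroblast-like cells by mean of the 4 classes drawn, and *Gpx2* was above 100 CPM only in basal-like cells of TEB.

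Among the peroxidases, *Gpx3*, the secreted form found in plasma, averaged 6486 ± 2368 CPM (SD, n = 16 fragments) in ER+ luminal-like cells. It was lower in fibroblast-like cells (1300 ± 957 CPM, n = 13), ER- luminal-like cells (291 ± 252, n = 14) and basal-like cells (262 ± 304, n = 16), and ER+ was the higher class in all 13, 14 and 16 fragments that held both. *Gpx1*, the cytosolic form made by most cells, was more even. Its mean was 1503 ± 503 CPM in myeloid-like cells (n = 7), 987 ± 200 in ER+, 777 ± 246 in ER-, 572 ± 142 in basal-like and 311 ± 98.5 in fibroblast-like cells. The neighbours ER+ and ER- overlapped, with ER+ higher in 10 of 14 fragments. *Gpx2*, a form known from epithelia of the gut, averaged 113 ± 177 CPM in basal-like cells and at most 2.14 CPM in the other classes with 2 or more fragments. The unnamed cluster of 71 cells held *Gpx2* at 14.98 CPM over all its cells (40 UMIs), beside 238 CPM in the basal-like cluster of mostly TEB cells.

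Among the transferases, *Mgst1*, a membrane-bound enzyme of the endoplasmic reticulum, was highest in ER- luminal-like cells at 1109 ± 305 CPM. It followed at 645 ± 391 CPM in fibroblast-like, 259 ± 162 in basal-like and 186 ± 87.8 in ER+ luminal-like cells, with ER- above basal-like and above ER+ in 14 of 14 fragments each. *Mgst3*, a related membrane enzyme that also reduces lipid hydroperoxides, averaged 259 ± 147 CPM in ER+ and 218 ± 109 in ER- luminal-like cells, with ER+ higher in 8 of 14 fragments. *Gstm1*, a cytosolic enzyme of the mu class, averaged 516 ± 259 CPM in fibroblast-like cells and 27.1 ± 8.38 in ER+ luminal-like cells, and fibroblast-like cells were higher in all 13 fragments. The single pericyte-like sum (nipple 21, 5 cells) held 1348 CPM. *Gsto1*, an omega-class enzyme that acts on oxidized thiols and dehydroascorbate, averaged 439 ± 104 CPM in basal-like, 273 ± 121 in ER+, 253 ± 117 in ER- and 97.9 ± 68.1 in fibroblast-like cells.

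*Aldh1a3*, a retinal dehydrogenase that makes retinoic acid, averaged 1462 ± 690 CPM in ER- luminal-like cells and 86.9 ± 75.7 in ER+ luminal-like cells, and ER- was higher in 14 of 14 fragments. *Aldh3a1*, which oxidizes medium-chain and aromatic aldehydes and is abundant in the cornea, averaged 284 ± 189 CPM in ER+ luminal-like cells. It averaged 12.9 ± 17.9 CPM in ER-, 6.38 ± 8.53 in basal-like and 4.70 ± 5.52 in fibroblast-like cells. The unnamed cluster of 71 cells, led by mast cell genes, held *Aldh3a1* at 298.5 CPM over all its cells. The same measure was 280.1 and 269.7 CPM in the 2 ER+ luminal-like clusters. For *Gpx3* it was 2907 CPM in the unnamed cluster, beside 6410 and 5493 CPM. RNA from other wells was not estimated for that cluster.

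Some UMIs in a class can come from RNA of other wells. This share was estimated per fragment and class from markers of unrelated cell types, and its location means were 6.38% to 15.01%. It was used to compute the UMIs each member would show if it were silent in the class. For the ER+ class the observed *Gpx3* UMIs were 16965 in nipple, 55990 in duct and 28637 in TEB, of which 2.18%, 8.39% and 4.91% were expected from other wells. In basal-like cells the 295, 1232 and 328 observed *Gpx3* UMIs were below the 322, 1679 and 969 expected, and in ER- luminal-like cells the expected UMIs were 87.2%, 134% and 161% of the observed. *Aldh3a1* in basal-like cells was likewise observed at 16, 21 and 10 UMIs against 13.95, 90.7 and 35.9 expected. By location totals, *Gpx3* was thus near or below the level expected from other wells in basal-like and ER- cells, and *Aldh3a1* in basal-like cells. Single ER- fragments lay on both sides for *Gpx3*. Duct 61 held 272 UMIs against 122 expected and nipple 22 held 40 against 19.4, while duct 32 held 276 against 500. In ER- luminal-like cells *Aldh3a1* was observed at 21, 43 and 2 UMIs against 9.84, 93.7 and 11.9 expected, so that nipple alone was above the expected level.

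**Figure D2:**
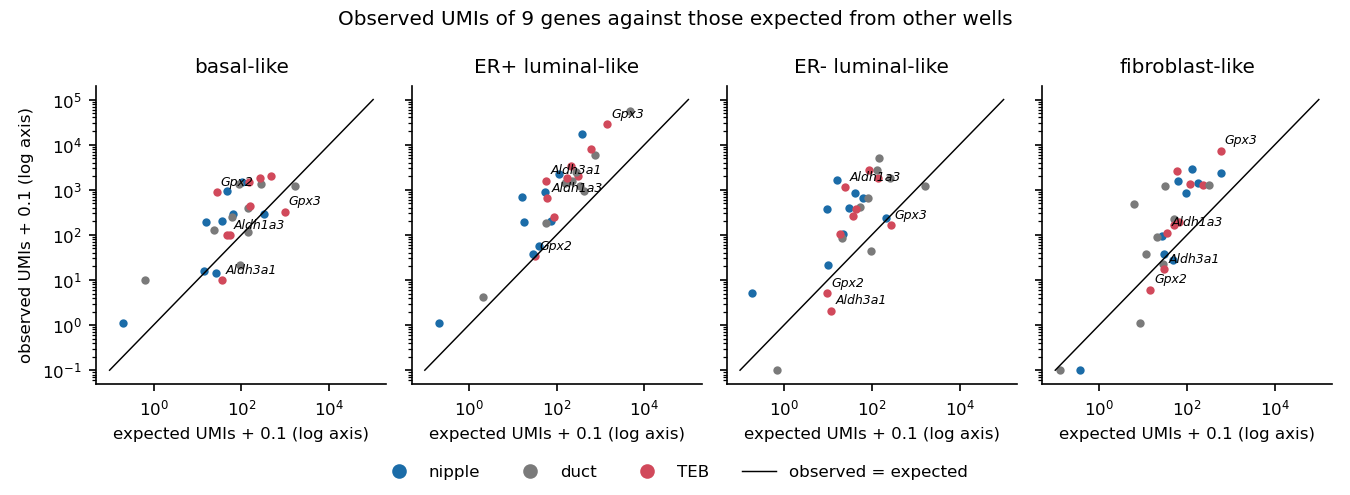
Observed UMIs of the 9 genes in each class and location (y axis) against those expected from other wells (x axis), both plus 0.1 on log axes, with the TEB points of 4 genes named and a line where both are equal. *Gpx3* and *Aldh3a1* lie far above the line in ER+ luminal-like cells and on or below it in basal-like and ER- luminal-like cells of TEB, while *Gpx2* lies above it in basal-like cells of TEB, with 896 UMIs observed and 27.1 expected.

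The second view is by location within a class. Fitted log2 differences come from edgeR on the summed counts, and the members that passed its filter on low counts were 8 in basal-like cells (not *Aldh3a1*), 8 in ER+ luminal-like cells (not *Gpx2*) and 7 each in the ER- and the fibroblast-like class (neither *Gpx2* nor *Aldh3a1*). These contrasts were among those the genes were chosen with, so the values are given with their standard errors and no test. Summed fibroblast markers (8, all detected) were higher in the nipple sums of each epithelial class, at 1013 to 2097, 882 to 2250 and 1030 to 1595 CPM in basal-like, ER+ and ER- cells against at most 595, 579 and 356 CPM in TEB and duct, and their part in the differences that follow was not tested. The median log2 difference of nipple minus TEB over the tested members was 0.11, 0.03, 0.83 and -0.79 in these 4 classes, beside -0.05, -0.02, -0.03 and -0.02 over all genes tested. In ER- luminal-like cells the *Gpx3* difference of 1.35 reversed to -0.83 when the members and pathway genes were left out of the clustering, and the median was then 0.45.

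**Figure D3:**
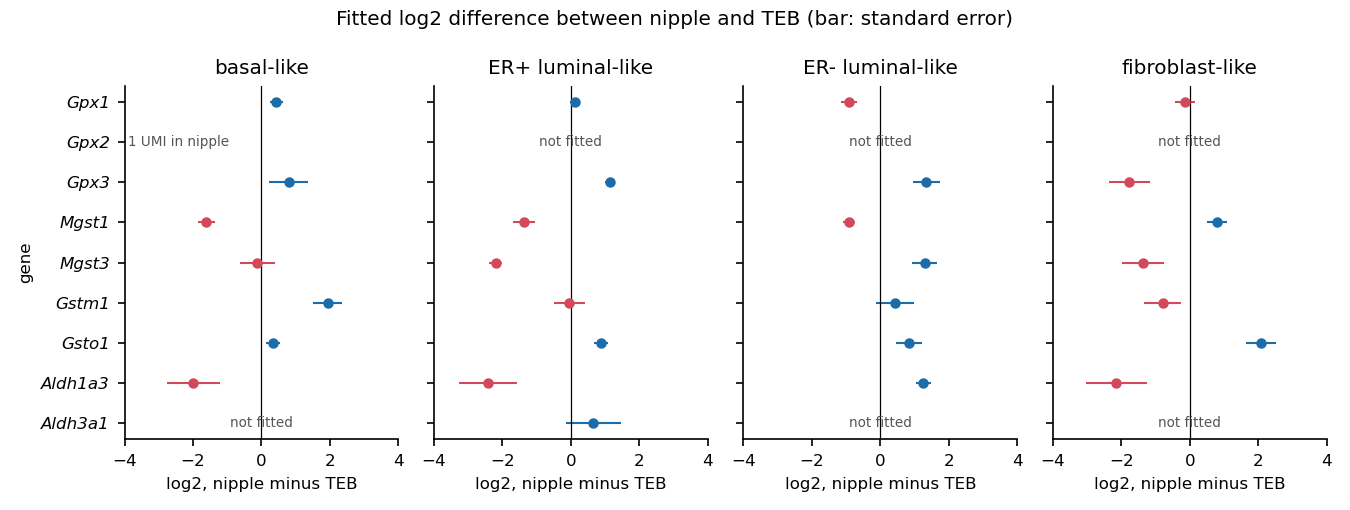
Fitted log2 difference of nipple minus TEB (x axis) with its standard error (bar) for the 9 genes in 4 classes, blue where higher in nipple and red where higher in TEB; genes under the filter are marked as not fitted, and *Gpx2* in basal-like cells as having 1 UMI in nipple. *Mgst1* lies on the TEB side in the 3 epithelial classes and on the nipple side in fibroblast-like cells, and *Mgst3* lies on opposite sides in ER+ and ER- luminal-like cells.

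*Gpx2* separated TEB basal-like cells from those of nipple and duct. Its level in TEB was 121 CPM at the lowest, 279 at the median and 588 at the highest of 6 fragments (295 ± 172, mean ± SD). In duct it was 0, 1.44 and 13.5 CPM (4.74 ± 6.34), with 10 UMIs in all. The 4 nipple fragments held 0, 1.66, 0 and 0 CPM, which is a single UMI in nipple 22. Every TEB fragment was above every duct and nipple fragment. The log2 difference of duct minus TEB was -6.16 (SE 0.57). The rate of UMIs in TEB was 522 times that in nipple, with an exact 95% interval of 93.5 to 20660 for counting error only.

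The same UMIs were also counted by cell, pooled over the fragments of a location, as a description and not as further support. The intervals take cells as independent and leave out the spread between fragments. After each cell was thinned to 5000 UMIs, 43 of 82 TEB basal-like cells (52.4%, exact 95% interval 41.1 to 63.6) had a *Gpx2* UMI, against 2 of 115 duct cells (1.74%, 0.211 to 6.14). Among nipple cells it was 0 of 97, and a floor of 3 cells allows a share of cells with a UMI of up to 3.09%. Before thinning 1.03% of these nipple cells had one. Of the 172 ER+ luminal-like cells from the same TEB fragments 4 had one (2.33%), near the background, since their 34 UMIs compare with 32.96 expected from other wells. The TEB shares before thinning were 68.3% of basal-like and 16.3% of ER+ luminal-like TEB cells, at median depths of 44192.5 and 40352.5 UMIs.

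*Mgst1* was higher in TEB than in nipple in each of the 3 epithelial classes, with no overlap of fragments. In basal-like cells the nipple fragments held 137, 166, 201 and 78.5 CPM, and the TEB fragments 295 at the lowest, 444 at the median and 572 at the highest. Duct fragments lay at 118 to 194 CPM, so that TEB stood above both. The log2 difference of nipple minus TEB was -1.61 (SE 0.26) and that of nipple minus duct -0.05 (SE 0.25). In ER- luminal-like cells *Mgst1* was 737, 854, 626 and 827 CPM in nipple, 1027 to 1209 in duct and 1305, 1751, 1577 and 1059 in the 4 TEB fragments with enough cells. Nipple lay below both other locations there, with a log2 difference to TEB of -0.90 (SE 0.18) and to duct of -0.57 (SE 0.16).

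For ER+ luminal-like cells *Mgst1* was 164, 124, 62.9 and 61.2 CPM in nipple and 190 to 337 CPM in TEB (median 254), a log2 difference of -1.38 (SE 0.32). The duct fragments spread from 62.6 to 268 CPM and overlapped both. In nipple, 35.9% of these UMIs were expected from other wells, and in TEB 15.6%. Fibroblast-like cells went the other way, at 545, 576, 807 and 588 CPM in nipple and 270 to 419 CPM in TEB (361 ± 57.7, n = 5), a log2 difference of 0.80 (SE 0.28). Their duct fragments lay far apart, with 411 and 742 CPM in ducts 32 and 52 and 1454 and 1455 in ducts 61 and 62.

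*Mgst3* differed in opposite directions in the 2 luminal classes. In ER+ luminal-like cells it was 86.7, 87.8, 105 and 93.4 CPM in nipple, 164 to 239 CPM in duct (median 198) and 339 to 527 CPM in TEB (median 425). The 3 locations did not overlap, and nipple minus TEB was -2.20 (SE 0.18), nipple minus duct -1.10 (SE 0.18) and duct minus TEB -1.10 (SE 0.15). The ER- class held *Mgst3* at 326, 437, 224 and 396 CPM in nipple, 98.6 to 269 in duct and 69.4, 164, 201 and 129 in TEB. All 4 nipple values were above all 4 TEB values, with a log2 difference of 1.29 (SE 0.35), while duct overlapped both. The nipple ER- sums also held 1917 to 3711 CPM of the 10 basal markers against 57.5 to 185 in TEB, with 1 marker at 0 in each, whose part was not tested. The difference between the classes was not tested. In basal-like cells *Mgst3* ranged from 10.05 to 199 CPM in nipple, 25.2 to 159 in duct and 34.6 to 193 in TEB, and the locations overlapped.

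The order of *Mgst3* also held within both ER+ luminal-like clusters. In the cluster led by *Sprr1a* and *Ido1* the means were 27.7 CPM in nipple (n = 2 fragments with at least 5 cells), 175 ± 21.03 in duct (n = 6) and 449 ± 70.4 in TEB (n = 6), with no overlap. In the other cluster they were 109 ± 29.2 (n = 4), 203 ± 47.6 (n = 6) and 443 ± 114 (n = 4), also with no overlap. The share of ER+ luminal-like cells with an *Mgst3* UMI after thinning was 18.6% of 43 nipple, 47.4% of 211 duct and 72.1% of 172 TEB cells, beside 8.16% of 98 TEB fibroblast-like cells (median 36218.5 UMIs before thinning).

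**Figure D4:**
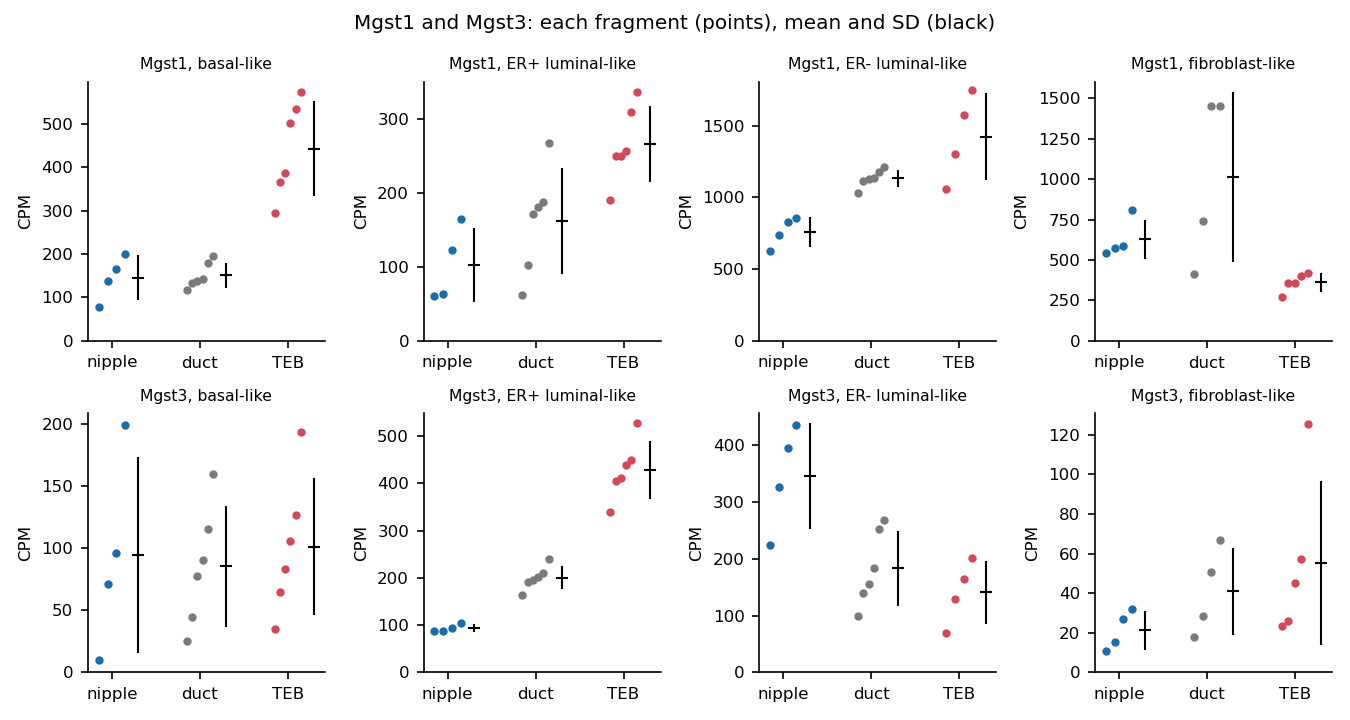
CPM of *Mgst1* (top) and *Mgst3* (bottom) in each fragment by location and class, on linear axes that start at 0, with points sorted by value and black bars for mean and SD. In ER+ luminal-like cells *Mgst3* averages 93.2 CPM in nipple, 201 in duct and 429 in TEB, and in ER- luminal-like cells 346, 183 and 141.

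*Gpx3* in ER+ luminal-like cells was lower in TEB than in both other locations. The nipple fragments held 8264, 9539, 7582 and 8245 CPM, the duct fragments 5837 to 10090 (median 8049) and the TEB fragments 2852 to 4877 (median 3737). TEB overlapped neither, nipple minus TEB was 1.13 (SE 0.14), duct minus TEB 1.03 (SE 0.13), and nipple and duct overlapped (0.10, SE 0.14). Within the *Sprr1a* and *Ido1* cluster the means were 11040 (n = 2), 8937 ± 2110 and 4418 ± 376 CPM, and in the other cluster 7508 ± 1202, 6780 ± 1445 and 3117 ± 543 CPM, and TEB again overlapped neither. In fibroblast-like cells *Gpx3* was 328 to 628 CPM in nipple and 364 to 2383 CPM in TEB (median 2085), an overlap due to TEB 42 alone. Clusters differed there: 115 of 116 nipple cells were in a cluster where *Gpx3* was 599 CPM over all its cells, and 64 of 98 TEB cells in a cluster led by *Pi16* where it was 2768 CPM.

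*Gpx1* in ER- luminal-like cells was 585, 332, 455 and 792 CPM in nipple and 955, 1084, 1284 and 793 CPM in TEB, a log2 difference of -0.92 (SE 0.23). The highest nipple and lowest TEB values differed by about 1 CPM, so the groups met without crossing, and duct, at 581 to 885 CPM, overlapped both. Among ER+ luminal-like cells *Gpx1* was 1060 to 1262 CPM in nipple, above every duct fragment (649 to 974), with a log2 difference of 0.45 (SE 0.14), and TEB (728 to 1271) overlapped both. In basal-like cells all locations overlapped, at means of 724 ± 77.3, 505 ± 151 and 539 ± 97.7 CPM.

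*Gstm1* in basal-like cells was 81.6, 89.5, 143 and 90.0 CPM in nipple, 23.03 to 71.4 in duct and 16.1 to 37.1 in TEB. Nipple was above both, with log2 differences of 1.94 (SE 0.43) to TEB and 0.97 (SE 0.42) to duct. These levels were low, at 199 UMIs in nipple and 101 in TEB, of which 17.8% and 47.5% were expected from other wells. In fibroblast-like cells *Gstm1* ranged from 274 to 486 CPM in nipple and from 652 to 857 in TEB 31 to 34, while TEB 42 held 62.6 CPM. That fragment had 6 fibroblast-like cells, 4 of them in the smallest cluster, where *Gstm1* was 57.6 CPM against 376 and 910 CPM in the other 2.

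*Gsto1* was higher in nipple in stroma. Fibroblast-like cells held 162, 165, 240 and 168 CPM in nipple, 44.4, 54.3, 107 and 113 in duct and 17.6 to 70.0 in TEB (median 37.7). Nipple was above both other locations, by log2 differences of 2.08 (SE 0.44) to TEB and 1.14 (SE 0.47) to duct. The cluster with most nipple cells held 156 CPM and the *Pi16*-led cluster 22.2 CPM. ER+ luminal-like *Gsto1* was 598, 260, 533 and 309 CPM in nipple, 155 to 275 in duct and 186 to 268 in TEB. Nipple 22 overlapped both, and the log2 difference of nipple minus TEB was 0.88 (SE 0.20). The difference lay in the cluster not led by *Sprr1a*, at 529 ± 282 CPM in nipple and 161 ± 49.9 in TEB, while in the *Sprr1a* cluster the means were 142 (n = 2) and 251 ± 45.1. Other wells accounted for an expected 5.94% of the nipple UMIs of *Gsto1*.

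*Aldh1a3* in ER- luminal-like cells was lowest in TEB. It was 1755, 1709, 1155 and 1198 CPM in nipple, 1534 to 2721 in duct (median 2001) and 587, 842, 667 and 347 in TEB. TEB overlapped neither location, with log2 differences of 1.25 (SE 0.22) for nipple minus TEB and 1.74 (SE 0.21) for duct minus TEB, and nipple and duct overlapped. The basal markers given beside *Mgst3* stood higher in these nipple sums too. The ER+ level of *Aldh1a3* ranged from 6.504 to 37.0 CPM in nipple, 11.6 to 208 in duct and 31.5 to 218 in TEB. Of these ER+ UMIs 76.4%, 44.9% and 9.14% were expected from other wells. In basal-like cells at least 55.9% of the *Aldh1a3* UMIs were expected from other wells in each location.

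*Aldh3a1* in ER+ luminal-like cells varied more between ducts than between locations. It was 575, 628 and 582 CPM in ducts 31, 32 and 51, 168 in duct 52 and 8.66 and 47.4 in ducts 61 and 62. The nipple fragments held 365, 283, 379 and 271 CPM and the TEB fragments 95.5 to 349 (median 181), and all 3 locations overlapped (nipple minus TEB 0.66, SE 0.79). Ducts 61 and 62 also had the lowest *Mgst1* (62.6 and 103 CPM) of the ducts in ER+ luminal-like cells, and the highest *Mgst1* in fibroblast-like cells. The labels do not say what the numbers stand for. After thinning, an *Aldh3a1* UMI was found in 27.9% of 43 nipple, 34.1% of 211 duct and 20.9% of 172 TEB cells of this class, beside 2.44% of 82 TEB basal-like cells.

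Promoters were searched for the core of the antioxidant response element, bound by NRF2, spelled TGACNNNGC on either strand, in the RefSeq table of promoters (GRCm38.p6, 250 bases before to 50 after a start). The table held 7 of the 9 members, with none for *Aldh1a3* and *Aldh3a1*. It matched 1 of them, and it matched 12.4% of all 32851 promoters. The match lies 56 bases before 1 of the 2 RefSeq starts of *Mgst1*. It is inside the gene as placed by GENCODE, which begins at chr6:138140316. The window at chr6:138140463-138140487 on the plus strand is shown as the only member with a match, with the motif (reverse complement) in capitals.
Mgst1 promoter: ggggcttgGCACGGTCAggaggcgg
A match describes these letters only, and no match says only that they are not in this window.

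By likeness over the 46 fragment sums of the 3 epithelial classes (Spearman correlation of log2(CPM + 1) among 8154 genes with a mean of at least 10 CPM), *Gpx3* was nearest to *Plac8* (0.935), *Hp* (0.924) and *Wfdc2* (0.909), and *Aldh3a1* to *2310002J15Rik* (0.87), *Hp* (0.861) and *Rbm20* (0.831). *Mgst1* was nearest to *Csn3* (0.915), *Hebp2* (0.839) and *Kit* (0.833), and *Aldh1a3* to *Rhov* (0.83), *F2rl1* (0.828) and *Rgs20* (0.822). *Gpx2* was nearest to *A230065H16Rik* (0.673), *Sostdc1* (0.656) and *St8sia6* (0.646). The nearest to *Gpx1* were *Atp6v0e* (0.792), *Sat1* (0.792) and *Tmc4* (0.773), and to *Mgst3* *H2-D1* (0.76), *Clu* (0.752) and *H2-K1* (0.739). *Gstm1* was nearest to *Rps29* (0.705), *Fxyd3* (0.681) and *Rps23* (0.676), and *Gsto1* to *Ankrd10* (0.744), *Bgn* (0.705) and *Sparc* (0.702). Among member pairs, *Gpx3* with *Aldh3a1* reached 0.825 and *Mgst1* with *Aldh1a3* 0.735, while *Gpx3* with *Mgst1* was -0.519. The sums share fragments, libraries and classes, so these values describe order and carry no p. By location totals of the basal-like and ER- sums, *Gpx3* was near or below the level expected from other wells, and *Aldh3a1* mostly so. The part of such RNA in these correlations was not tested.

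The other genes of the pathways were taken from 8 lists of 158 genes, of which 149 were matched. Because the lists were chosen with earlier results of these data known, their shares are set beside those of all genes as a description. A gene passed at an adjusted p under 0.05 (edgeR, Benjamini-Hochberg over all genes of the class). In basal-like cells 28 of 94 tested genes passed across locations (29.8%, beside 20.6% of all 7316 genes), with nipple highest in 11, duct in 5 and TEB in 12. After thinning each cell to 5000 UMIs the count was 16, and the median depth before thinning was 21856 UMIs in nipple and 44192.5 in TEB basal-like cells. Between nipple and TEB 11 were higher in nipple (8.9% of all genes were) and 13 in TEB (9.81% of all genes). Of 19 tested NRF2 genes, 4 were higher in nipple and 2 in TEB in that contrast. The median log2 difference of nipple minus TEB over these 19 was -0.305, toward TEB, beside -0.05 over all genes tested. The 3 named next had the smallest p across locations. *Hmox1*, which degrades heme, was 424 ± 223 CPM in nipple (n = 4), 244 ± 98.5 in duct (n = 6) and 56.9 ± 11.8 in TEB (n = 6), a nipple minus TEB difference of 2.88 on the log2 scale (SE 0.30, edgeR adjusted p = 5.62e-09). *Osgin1*, a gene induced by oxidative stress, was 237 ± 46.6 and 47.1 ± 30.8 CPM in nipple and TEB (adjusted p = 4.61e-06), and *Akr1b8*, an aldo-keto reductase, 75.7 ± 67.3 and 13.3 ± 9.85 (adjusted p = 0.0119), with nipple fragments above TEB fragments for all 3. The observed *Hmox1* UMIs in TEB were below those expected from other wells (123%).

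Of 17 tested peroxiredoxins, thioredoxins, catalase and superoxide dismutases in basal-like cells, 4 passed across locations (23.5%), a share near that of all genes. Between nipple and TEB 2 of them were higher in TEB, and *Sod2*, the mitochondrial superoxide dismutase, was higher in nipple (log2 0.84, edgeR adjusted p = 0.0404). The other selenoproteins and their machinery gave the same share, 4 of 17, with 3 higher in TEB and *Selm* (selenoprotein M) higher in nipple (log2 0.93, adjusted p = 0.0138), and fragments overlapped for both genes higher in nipple. *Prdx2* was 224 ± 61.6 CPM in nipple and 667 ± 119 in TEB (log2 -1.57, SE 0.20, edgeR adjusted p = 5.21e-07), and *Prdx4*, the form of the endoplasmic reticulum, 96.2 ± 27.6 and 247 ± 91.7 (adjusted p = 0.00111). The selenoprotein genes *2700094K13Rik* (selenoprotein H), *Vimp* (selenoprotein S) and *Sep15* (selenoprotein F) rose from 32.9 ± 22.4, 116 ± 67.1 and 274 ± 73.7 CPM in nipple to 299 ± 89.9, 256 ± 57.1 and 447 ± 46.4 in TEB (adjusted p = 1.12e-06, 0.0054 and 0.00863). *Slc3a2*, the shared chain of amino acid exchangers, was 1339 ± 167 CPM in nipple, 517 ± 64.6 in duct and 829 ± 200 in TEB (adjusted p = 0.0019 for nipple against TEB). *Chac1*, which cleaves glutathione, was 156 ± 57.1 CPM in nipple and 20.9 ± 6.82 in TEB (adjusted p = 0.000129). *Slc7a11*, the cystine carrier, differed across locations (adjusted p = 0.000544) but not between nipple and TEB (29.4 ± 25.6 and 65.7 ± 60.2 CPM, adjusted p = 0.287), with 4.21 ± 2.56 CPM in duct. *Txnrd1*, thioredoxin reductase, passed across locations as well (adjusted p = 0.0143) at 363 ± 127, 189 ± 71.5 and 309 ± 57.3 CPM.

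The retinoid-binding genes *Fabp5* and *Crabp2* differed in opposite directions in basal-like cells. *Fabp5*, a fatty acid and retinoic acid binding protein, was 192 ± 99.2 CPM in nipple and 1086 ± 326 in TEB (log2 -2.50, SE 0.30, edgeR adjusted p = 8e-07). *Crabp2*, which carries retinoic acid to its receptors, was 103 ± 36.9 in nipple, 154 ± 20.1 in duct and 5.38 ± 7.48 in TEB (adjusted p = 3.91e-07). Of the other aldehyde dehydrogenases 3 of 7 passed across locations. *Aldh16a1* was 1.67 ± 2.37 CPM in nipple (3 UMIs) and 46.3 ± 19.1 in TEB, a rate ratio of 36.7 (exact 95% interval 12.4 to 180, counting error only). *Aldh7a1* was 44.3 ± 41.2, 134 ± 40.0 and 106 ± 39.2 CPM in nipple, duct and TEB (adjusted p = 0.0328 across), and the mitochondrial *Aldh2* was 335 ± 63.9, 395 ± 114 and 241 ± 34.1 (adjusted p = 0.0177 across). The only other transferase called was *Gstt1*, at 36.3 ± 40.3 CPM in nipple, 16.0 ± 16.0 in duct and 2.29 ± 2.98 in TEB, with overlap (adjusted p = 0.0492 across). Of the 3 other peroxidases tested, 0 passed by edgeR, 2 had an unadjusted p under 0.05 and 0 passed by DESeq2.

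**Figure D5:**
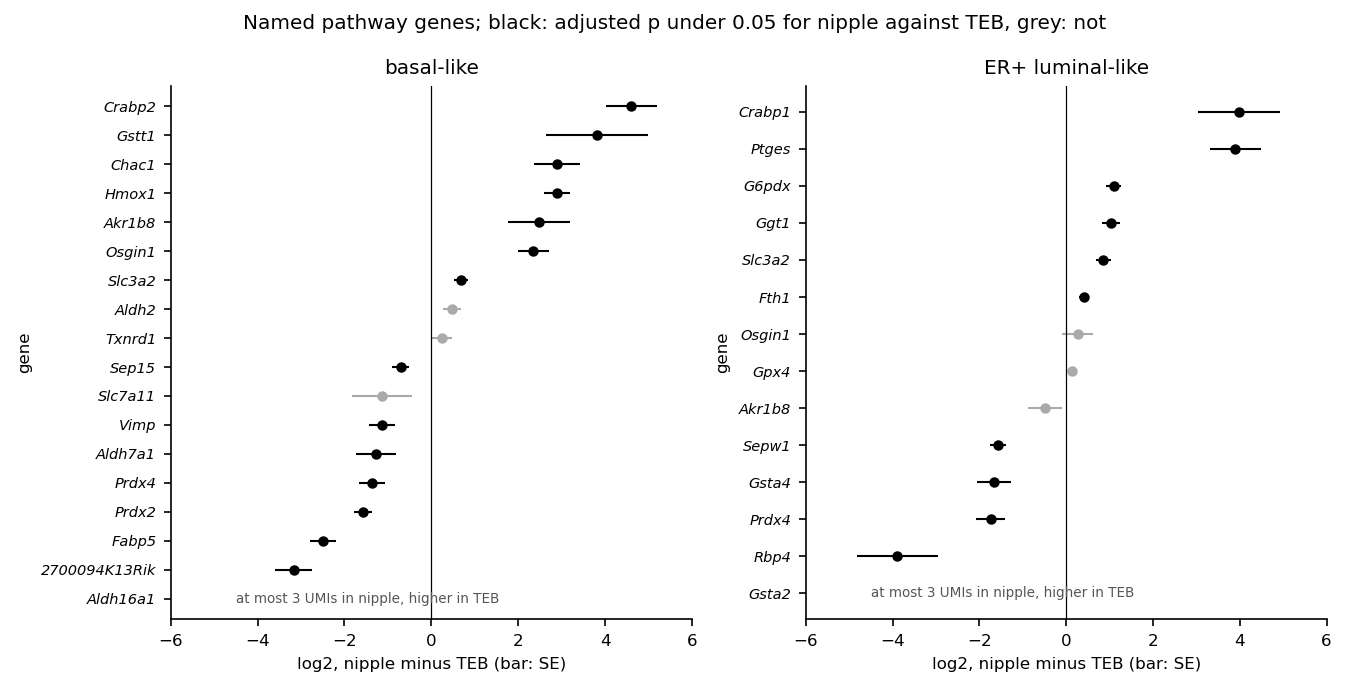
Fitted log2 difference of nipple minus TEB (x axis) with its standard error (bar) for named pathway genes in basal-like and ER+ luminal-like cells, black where the adjusted p for nipple against TEB was under 0.05; *Aldh16a1* and *Gsta2* had at most 3 UMIs in nipple and are marked in words. In basal-like cells the named NRF2 targets *Hmox1*, *Osgin1* and *Akr1b8* lie on the nipple side, and *Prdx2* and *Prdx4* on the TEB side. The median over all 19 tested NRF2 genes, most of them not drawn, was -0.305.

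In ER+ luminal-like cells 15 of 109 tested pathway genes passed across locations (13.8%, beside 5.56% of all 8770 genes), with nipple highest in 8, duct in 1 and TEB in 6. Between nipple and TEB 7 were higher in nipple (2.59% of all genes were) and 8 in TEB (2.94% of all genes), and 8 in all passed after thinning in place of 15. On the list of glutathione synthesis and recycling 4 of 18 tested genes were higher in nipple. *G6pdx*, which makes NADPH, was 654 ± 117 CPM in nipple and 307 ± 55.0 in TEB (log2 1.09, SE 0.18, edgeR adjusted p = 0.000151). *Ggt1*, which cleaves glutathione outside the cell, was 314 ± 69.8 and 154 ± 21.1 (adjusted p = 0.00275), and *Slc3a2* 355 ± 98.2 and 195 ± 26.4 (adjusted p = 0.00185). Among relatives of the members, *Ptges*, a prostaglandin E synthase, was 55.7 ± 24.9 CPM in nipple and 3.89 ± 2.91 in TEB (adjusted p = 3.31e-05), where 94.1% of its TEB UMIs were expected from other wells. *Gsta4* was 37.8 ± 12.3 in nipple and 121 ± 50.2 in TEB (adjusted p = 0.00765). *Gsta2*, which has a near-identical paralog, had 0 UMIs in nipple and 31.5 ± 33.3 CPM in TEB, at least 18.8-fold higher when nipple is set to a floor of 3 UMIs over its 4 sums.

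The selenoprotein gene *Sepw1* was 157 ± 41.2, 214 ± 37.6 and 467 ± 53.4 CPM in ER+ cells of nipple, duct and TEB (nipple minus TEB -1.56, SE 0.19, edgeR adjusted p = 6.4e-07), with nipple below TEB in every fragment. *Prdx4* was 36.8 ± 21.4 in nipple and 127 ± 22.9 in TEB (adjusted p = 0.00109). *Gpx4*, the peroxidase of membrane lipids, was lowest in duct at 602 ± 49.9 CPM, against 895 ± 26.8 in nipple and 819 ± 101 in TEB (adjusted p = 0.00284 across). Duct was also lowest for *Akr1b8* (36.5 ± 10.04 CPM, adjusted p = 0.00747 across) and highest for *Osgin1* (101 ± 30.4, adjusted p = 0.0117 across). *Fth1*, the ferritin heavy chain, was 4219 ± 238 in nipple and 3182 ± 648 in TEB (adjusted p = 0.0212). *Rbp4* was 29.6 ± 16.9 CPM in TEB, with 4 UMIs in nipple, and *Crabp1* was 36.6 ± 10.7 in nipple and 2.15 ± 1.66 in TEB (adjusted p = 0.00814 and 0.00815), the *Crabp1* UMIs in nipple being fewer than those expected from other wells (137%). Of the 10 other aldehyde dehydrogenases tested, 0 passed by edgeR, 5 had an unadjusted p under 0.05 and 1 passed by DESeq2.

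In ER- luminal-like cells 8 of 78 tested pathway genes passed across locations (10.3%, beside 4.1% of all 5706 genes), with nipple highest in 4, duct in 1 and TEB in 3. Between nipple and TEB 4 were higher in nipple (2.98% of all genes were) and 2 in TEB (1.59% of all genes), or 10 in all without nipple 23 in place of 6. Keeping only fragments with at least 10 cells of the class left TEB 33 as the single TEB fragment, and 3 genes then passed by either test. *Prdx2* was 256 ± 91.6 CPM in nipple (n = 4) and 647 ± 84.1 in TEB (n = 4), with a log2 difference of -1.34 (SE 0.28, edgeR adjusted p = 0.00289). *Slc3a2* was 989 ± 112 and 422 ± 102 (adjusted p = 0.00134), *Chac1* 95.2 ± 45.3 and 7.06 ± 7.99 (adjusted p = 0.00227) and *Sesn2*, a stress-induced sestrin, 73.6 ± 18.7 and 7.17 ± 8.89 (adjusted p = 0.0172). *Gstm2*, a neighbour of *Gstm1* with similar sequence, was 71.8 ± 23.9 in nipple and 3 UMIs in TEB, a rate ratio of 38.4 (exact 95% interval 12.7 to 190, counting error only). *Fth1* and *Gpx4* differed across locations (adjusted p = 0.00917 and 0.0178) with duct lowest, at 1986 ± 244 and 905 ± 256 CPM.

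In fibroblast-like cells 4 of 113 tested pathway genes passed across locations (3.54%, beside 1.7% of all 8489 genes), and all 4 were highest in nipple. Between nipple and TEB 5 passed, each higher in nipple, beside 1.11% of all genes higher in nipple and 0.436% higher in TEB. *Ggt5*, which converts glutathione conjugates, was 147 ± 15.1 CPM in nipple (n = 4), 60.0 ± 46.0 in duct (n = 4) and 12.7 ± 5.59 in TEB (n = 5), with an edgeR adjusted p of 0.000746 for nipple against TEB. The others act on retinoids or respond to them. *Adh7* and *Adh1*, alcohol dehydrogenases that oxidize retinol, were 128 ± 58.2 and 116 ± 23.1 CPM in nipple and 6.64 ± 8.30 and 7.04 ± 10.2 in TEB (adjusted p = 0.00249 and 0.0267). *Rarres1*, a retinoic acid responder, was 110 ± 42.6 and 8.09 ± 6.19 (adjusted p = 0.0089). Of the nipple cells 115 of 116 lay in a cluster that held 16 of 98 TEB cells, so location and fibroblast cluster cannot be told apart here. The counts also moved with the fragments used, from 4 to 19 across locations when only fragments with at least 10 fibroblast-like cells were kept, to 2 without nipple 21 or nipple 23, to 11 with DESeq2, to 8 with no filter and to 1 after thinning.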

How the data were processed

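Single nipple, duct and TEB fragments (4, 6 and 6) were read cell by cell on plates with a 3' SMART-seq protocol and ERCC spike-in RNA. Per the labels, the authors used UMI-tools, Trim Galore, STAR on mm10 and featureCounts, and the deposited values are UMI counts of each gene in each cell, not normalized. All 16 fragments were used and 0 columns were left unassigned. The list of barcodes was not used. The 67 spike-ins stayed out of sums and tests.

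Cells were kept at 5000 to 120000 UMIs, 200 to 6000 genes and at most 5% spike-in UMIs, then grouped by Seurat 5.3.0 (R 4.3.3; 2000 variable genes, 14 components, resolution 0.5, regression of spike-in percentage, cell cycle and gene number). No doublet caller was run. A cluster was named when over 0.5 of a class's markers, and at least 3, were above average, and the mast-cell-led cluster stayed unnamed. For each class, the counts of a fragment's cells were added up where it had 5 or more, and edgeR 4.0.16 was run on these sums (robust quasi-likelihood test, TMM, filterByExpr, all 3 locations in 1 model, no block), with Benjamini-Hochberg adjustment over all genes tested and a threshold of 0.05. The standard error is the log2 difference divided by the root of its F statistic. CPM of the classes fitted by edgeR used library sizes after the filter and TMM factors, separately for each class. Those of myeloid-like and pericyte-like cells and of clusters used plain totals. Levels of different classes are therefore not on exactly the same scale. Cells are not replicates. The edgeR script was tested on simulated data.

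The UMIs expected from other wells are a share (the median rate, in a class's cells, of fibroblast plus myeloid markers relative to the rate in the pool of all the fragment's cells) times the pool's rate. For fibroblast-like cells keratins took the place of both marker sets. Estimates over 100% show that the share can be too high.

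The members and lists were chosen with earlier results of these data known. The text names the members, from each of 8 pathway lists at most 3 genes past the threshold with the smallest p in each class, and for each member the 3 most correlated genes. 1 gene of the lists is not reported here. Genes singled out beyond this rule (*Sprr1a*, *Ido1* and *Pi16*, which lead clusters, *Sod2* and *Selm*) were chosen after their values were seen. Intervals, at a level of 95%, are exact (Clopper-Pearson for shares), and they and the floor of 3 UMIs cover counting error only. Positions and codons come from GENCODE M21. Alternatives were DESeq2 1.42.0, RLE size factors, no filter, 2 locations only, thinning, at least 10 cells, 10000 UMIs, 10% spike-ins, resolution 1, no regression, clustering without the members and lists, a replicate block and leaving out each fragment.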

Additional observations from a re-analysis of the deposited data

Results flagged for a closer look

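Of 105 groups of 4 to 6 fragments, 12 held a fragment far from the others for its range. The nominal rate of about 1 in 20 groups was not checked for these values, and some groups were mostly at 0. Of these, 5 rest on 1 to 5 UMIs. They are *Gpx2* at 1.66 CPM in basal-like cells of nipple 22, at 1.75 CPM in ER+ luminal-like and at 12.0 CPM in ER- luminal-like cells of nipple 23, and *Aldh3a1* at 9.75 CPM in basal-like cells of TEB 31 and at 11.1 CPM in fibroblast-like cells of duct 32. In fibroblast-like cells nipple 23 was the highest nipple fragment for *Mgst1* (807 CPM) and *Gsto1* (240 CPM), duct 52 the highest duct for *Gstm1* (941 CPM) and TEB 42 the lowest TEB for *Gpx3* (364 CPM) and *Gstm1* (62.6 CPM). TEB 42 had 6 fibroblast-like cells and duct 52 had 5. In basal-like cells *Gstm1* stood at 143 CPM in nipple 23 and *Aldh1a3* at 145 CPM in duct 31.

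*Mgst3* was higher in nipple than in TEB in ER- luminal-like cells (log2 difference of 1.29) and lower in ER+ luminal-like cells, in every fragment of each class. The difference between the classes was not tested.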

How the results depend on the processing

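Of 90 recomputed counts of pathway genes, 79 stayed within 1.5 times the value reported and 11 did not. Thinning each cell to 5000 UMIs lowered basal-like calls across locations from 28 to 16, ER+ calls between nipple and TEB from 15 to 8 and fibroblast-like calls to 1 across locations and 2 between nipple and TEB. Keeping only fragments with at least 10 cells gave 3 ER- calls by either test, with TEB 33 (assumed to vary like the other groups) as the single TEB fragment, and 19 and 13 fibroblast-like calls (4 and 5 as reported), where fibroblast-like ducts 32 and 52 and TEB 42 drop out. Fibroblast-like calls across locations were 11 with DESeq2 and 8 with no filter. Leaving out each fragment gave 22 to 28 basal-like calls across locations and 20 to 25 between nipple and TEB, 13 to 20 and 13 to 19 in ER+, 6 to 10 and 5 to 10 in ER- (10 between nipple and TEB without nipple 23) and 2 to 6 by either test in fibroblast-like cells. These fell to 2 between nipple and TEB without nipple 21 and to 3 without nipple 22, 23 or 24 or TEB 31, 32 or 33, and to 2 across locations without nipple 21 or 23. Scaling without regression left 128 basal-like cells of 294 and could not be fitted in that class.

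Of 346 recomputed member differences, 340 moved by less than the spread between fragments and 6 did not. *Gpx3* in ER- luminal-like cells reversed from 1.35 to -0.83 when members and pathway genes were left out of the clustering, which added 1 cell to the class. Thinning moved *Mgst3* to -2.78 and *Gsto1* to 0.40 in ER+ cells, 10000 UMIs moved *Mgst3* to -2.48, and at least 10 cells, with TEB 33 alone for TEB, moved *Mgst1* to -1.25 and *Aldh1a3* to 0.74 in ER- cells. Leaving out each fragment gave another 445 differences, of which 444 moved by less than that spread. The other was *Gpx2* in basal-like cells, at -10.29 without nipple 22. Nipple then held 0 *Gpx2* UMIs, so the size of that value is not a measured difference. The alternatives kept *Mgst3* at -2.78 to -2.13 in ER+ and 0.97 to 1.49 in ER- luminal-like cells, and *Mgst1* at -1.80 to -1.40, -1.74 to -1.21 and -1.25 to -0.75 in basal-like, ER+ and ER- cells, the value of -1.25 being that with TEB 33 alone.

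Ducts and TEBs share only the numbers 31 and 32, and the deviations of same-numbered sums correlated at -0.015 to 0.044. So few shared numbers cannot show whether same-numbered fragments came from the same mouse, and the reported fits used no pairing. With the replicate block, fibroblast-like calls between nipple and TEB were 3 in place of 5, and the other counts stayed within 1.5 times.

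Depth limits the low members. *Gpx2* outside basal-like cells and *Aldh3a1* outside ER+ luminal-like cells stayed under the filter in the 4 classes fitted, and 4 to 6 fragments a location cannot resolve small differences.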
